A study of Glycine max with 24 samples.

Results

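Developing HiPro soybean seed was compared between stage 3, at over 100 and up to 200 mg per seed, and stage 2, at over 50 and up to 100 mg per seed. The comparison took all arrays that the labels place in these groups, 3 of stage 3 and 3 of stage 2 among the 24 arrays of the series, and every soybean probeset on them, 37694 in all. It asked which transcripts changed in the step between these neighbouring stages of seed fill. HiPro is a near-isogenic line of Glycine max that carries the high protein allele of the wild relative Glycine soja PI468916 at the linkage group I protein QTL, in a G. max background. LoPro, used beside it below, retains the G. max allele there, and neither line carries a transgene or received a treatment. The pair is 1 line per allele, so no other line separates the allele from the line. Plants grew in growth chambers in inoculated and fertilized soil. Each array holds RNA of whole seed, seed coat and embryo together, pooled from 3 plants, and seed of all 4 stages was taken at 1 harvest from the same plants.

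During seed fill the soybean embryo stops dividing, its cotyledon cells enlarge, and they load protein and oil. The storage proteins, glycinin and beta-conglycinin, are made on the endoplasmic reticulum and sent to storage vacuoles, while oil is packed in bodies coated with oleosins. Late in filling, embryos also accumulate late embryogenesis abundant (LEA) proteins, which are known from dry tissues. The seed coat is maternal tissue that delivers sugar and amino acids to the embryo and builds proanthocyanidins through the flavonoid pathway.

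The arrays were first compared with each other. The median signal was 207 to 217 on stage 3 arrays and 202 to 216 on stage 2 arrays. Stage 2 replicates 1 and 2 were closer than any other of the 276 pairs of arrays. Over the 5723 probesets with a mean signal of at least 1000, the robust SD of their log2 differences was 0.0962, against 0.14 for the next closest pair and 0.174 to 0.396 for the other 23 replicate pairs. Their values are not identical, and whether both arrays hold RNA of separate plants could not be told from the files. Results are therefore also given with those arrays averaged into 1, a choice made after seeing the data. Among stage 3 arrays, replicate 3 lay nearest to the stage 2 arrays, with a spread of 0.234 to 0.286, against 0.414 to 0.544 for replicate 1 and 0.369 to 0.398 for replicate 2. Within its own stage, replicate 3 was at 0.238 from replicate 2 and 0.396 from replicate 1. It was thus about as near to stage 2 replicates 2 and 1 (0.234 and 0.241) as to any stage 3 array. Stage 3 replicate 2 was nearer to stage 4 replicates 3 and 2 (0.195 and 0.202) than to the other stage 3 arrays. On this measure the arrays did not group by stage alone. The 3′ to 5′ ratio of the actin control was 24.4, 24.6 and 29 in stage 3 seed and 42, 38.5 and 34.5 in stage 2 seed, so it was lower on every stage 3 array. The ratio of the ubiquitin control was 7.22, 22.6 and 8.96 in stage 3 seed and 45, 8.19 and 50.6 in stage 2 seed, and the stages overlapped. The part of these differences in the results was not tested.

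A total of 1985 probesets changed between the stages, 5.27% of those tested. A probeset was called changed at a limma p below 0.05 after Benjamini-Hochberg adjustment over all probesets and a change of at least 1.5-fold. Of these, 856 were higher in stage 3 seed (2.27% of all) and 1129 were lower (3.00%). The falls were larger: 561 of them were at least 2-fold, 114 at least 4-fold and 41 at least 8-fold, against 268, 50 and 10 of the rises. The median log2 change over all probesets was 0.04, with quartiles of -0.21 and 0.29. In 1823 of the called probesets (91.8%) the stages did not overlap on any array, against 8973 (23.8%) of all probesets. With stage 2 replicates 1 and 2 averaged, 553 rose (1.47%) and 684 fell (1.81%), together 3.28%, when the mean stood in plant pool 1. When it stood in plant pool 2, 387 rose (1.03%) and 637 fell (1.69%), together 2.72%. Without the plant pool as a block, 427 rose (1.13%) and 616 fell (1.63%), together 2.77%, and 637 probesets were called in that fit and in both averaged ones. Averaging those arrays and dropping the block left 123 rises (0.326%) and 234 falls (0.621%), together 0.947%. The 6 arrays fitted alone gave 348 rises (0.923%) and 557 falls (1.48%), together 2.40%. Since the RNA came from whole seed, fewer cells of a type and less RNA per cell cannot be told apart in any of these results.

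Some seed storage protein transcripts were higher in stage 3 seed. All values of 1 probeset given below are MAS5 signals in replicates 1, 2 and 3. CG-BETA-1, the beta subunit of beta-conglycinin, had signals of 21181, 22599 and 15729 in stage 3 seed and 2735, 2855 and 1508 in stage 2 seed. All stage 3 arrays stood far above all stage 2 arrays, and replicate 3 was the lowest at both stages. This was the largest rise called among named transcripts, 8.61-fold (log2 change 3.11 ± 0.69, SE, n = 3 arrays per stage, adjusted p = 0.01). A second CG-BETA-1 probeset had a similar change with a wider error and was not called (3.28 ± 1.06, adjusted p = 0.065).

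Of the 19 storage protein probesets, 4 rose and none fell (21.1%, against 5.27% of all probesets), and the median log2 change was 0.71 against 0.04 for all probesets. Beside CG-BETA-1 the called members were another beta chain of beta-conglycinin (1.22 ± 0.32), its alpha′ chain (1.21 ± 0.29) and the glycinin GY7 (1.11 ± 0.24). The alpha′ chain had signals of 9316, 7695 and 5890 in stage 3 seed and 3736, 4286 and 2145 in stage 2 seed. GY7 was far dimmer, at 437, 283 and 249 in stage 3 seed and 184, 193 and 85.8 in stage 2 seed. Stage 3 lay above stage 2 on every array of both genes. Without the block 2 of the 4, CG-BETA-1 and GY7, were called.

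Several storage transcripts that were already bright at stage 2 were not called. The glycinins GY1, GY2 and GY5, main subunits of the legumin type, and the 2S albumin GM2S-1 had log2 changes of 0.40 to 0.53, and none was called. One GY1 probeset had signals of 20697, 21503 and 14042 in stage 3 seed and 13077, 15405 and 13580 in stage 2 seed, so replicate 3 of stage 3 lay within the stage 2 values. Basic 7S globulin BG7S-1 had 21399, 25215 and 13327 in stage 3 seed and 8841, 10585 and 4426 in stage 2 seed. Its stages did not overlap, yet the change of 1.37 ± 0.67 was not called (adjusted p = 0.23). Over the list, 18 of 19 probesets had a log2 change above 0. The highest signal of any probeset was 28636, 30613 and 21410 on stage 3 arrays and 19533, 21625 and 18218 on stage 2 arrays, and its part in the values of bright transcripts was not tested. Most descriptions behind this list, and behind the others below, come from probesets that the study chose on these arrays. The list counts are therefore not independent evidence of a direction, and their shares are set beside the 5.27% of all probesets only as a description.

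**Figure D1:**
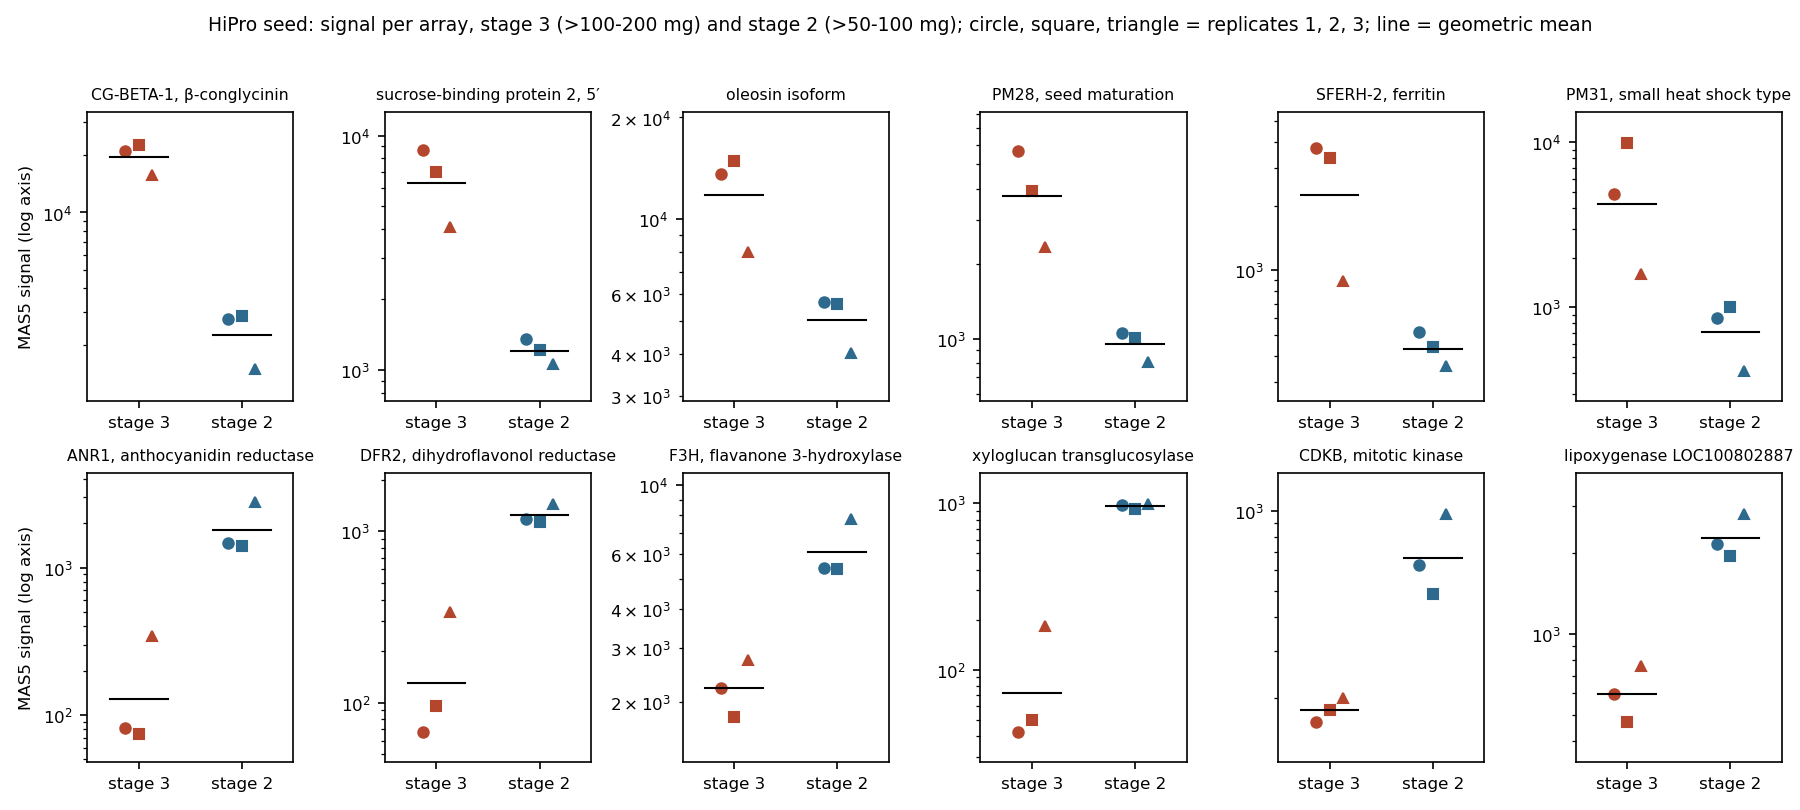
Each panel plots the MAS5 signal (log axis) of 1 probeset on the 3 stage 3 arrays (left) and the 3 stage 2 arrays (right) of HiPro seed, with circles, squares and triangles for replicates 1, 2 and 3 and a line at the geometric mean. The first 6 panels show transcripts higher at stage 3 and the other 6 transcripts lower at stage 3, most of them chosen among probesets without overlap, and for CG-BETA-1 the stage 3 arrays lie at 15729 to 22599 and the stage 2 arrays at 1508 to 2855.

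Sucrose-binding proteins, membrane-associated relatives of the vicilin storage proteins, also rose. The 5′ probeset of sucrose-binding protein 2 had signals of 8693, 6965 and 4086 in stage 3 seed and 1361, 1217 and 1062 in stage 2 seed. Every stage 3 array exceeded every stage 2 array, and the rise was 5.2-fold (2.38 ± 0.37, adjusted p = 0.0013). Of the 5 probesets of the list 3 (60%) were called higher, with a median log2 change of 0.70. The array also carries a middle and a 3′ probeset, described as sucrose-binding protein precursor and not as protein 2. The middle one rose by 0.70 ± 0.18, while the 3′ one, at 23442, 25379 and 17525 in stage 3 seed and 14530, 17058 and 13808 in stage 2 seed, had 0.54 ± 0.16 and missed the fold threshold. The 3′ to 5′ ratio of the actin control was lower on every stage 3 array, at 24.4 to 29 against 34.5 to 42 on stage 2 arrays, and its part in the larger value of the 5′ probeset was not tested. With the block left out, or with stage 2 replicates 1 and 2 averaged in either pool, 1 of the 5 was called.

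Oil body proteins rose as well. Of 6 probesets 5 rose and none fell (83.3%), with a median log2 change of 0.69. The brightest called oleosin, similar to peanut oleosin 2, had signals of 16484, 18901 and 15380 in stage 3 seed and 10511, 11376 and 10627 in stage 2 seed. An oleosin isoform had 13627, 14916 and 8027 in stage 3 seed and 5679, 5620 and 4019 in stage 2 seed. The stages were separate in both, and the changes were 0.64 ± 0.14 and 1.22 ± 0.27 (adjusted p = 0.012 and 0.011). The steroleosin, an oil body dehydrogenase, had 0.53 ± 0.12 and missed the fold threshold. Without the block 3 of the 6 were called, and this oleosin isoform was not among them. With stage 2 replicates 1 and 2 averaged, 1 was called in pool 1 and 4 in pool 2. Among enzymes that make the oil, of 27 probesets for fatty acid and oil synthesis none rose, 1 fell (3.7%), and the median log2 change was 0.07.

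Some transcripts for the sorting of proteins to the vacuole and their processing there rose. Of the 17 probesets for folding in the endoplasmic reticulum and for vacuolar processing, 4 rose and none fell (23.5%). Vacuolar sorting receptor 7, of a receptor family that sorts proteins to the vacuole, had signals of 397, 411 and 253 in stage 3 seed and 142, 128 and 100 in stage 2 seed. Stage 3 exceeded stage 2 throughout, and the rise was 2.83-fold (SE of the log2 change 0.25, adjusted p = 0.0016). Vacuolar sorting receptor 6, a further putative receptor and VPE, the vacuolar processing enzyme that cleaves storage protein precursors, were also called (1.11 ± 0.26, 1.01 ± 0.21 and 0.67 ± 0.14). VPE2, a second processing enzyme gene, was not called, with changes of -0.55 ± 0.31 and -0.73 ± 0.31 in its 2 probesets, nor was the sorting receptor LOC100806422 (0.20 ± 0.089). The folding helpers were not called: the BIP4 probesets had log2 changes of 0.07 and 0.06, and the 2 PDIM-1 probesets -0.23 and -0.37. The median of the list was -0.11.

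LEA and seed maturation proteins were the largest group of rises. Of 41 probesets 16 rose and none fell (39%), and 38 had a log2 change above 0, with a median of 0.83. PM31, a seed maturation protein of the small heat shock type, had signals of 4851, 9955 and 1598 in stage 3 seed and 857, 1010 and 411 in stage 2 seed. The stages were separate, but the stage 3 arrays spread widely and the change of 2.59 ± 0.72 had an adjusted p of 0.034. PM31 was not called without the block or with stage 2 replicates 1 and 2 averaged. PM28 was more even, at 5641, 3908 and 2334 in stage 3 seed and 1054, 1010 and 804 in stage 2 seed (1.97 ± 0.33, adjusted p = 0.0021).

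PM22 had 5793, 3634 and 2656 in stage 3 seed and 944, 957 and 511 in stage 2 seed, a rise of 2.31 ± 0.50. The dehydrin PM12, a hydrophilic LEA protein, was already bright: 1 of its probesets had 16392, 16630 and 10478 in stage 3 seed and 8683, 8416 and 6888 in stage 2 seed (0.83 ± 0.20). Without the block 5 of the 16 were called, among them PM28, PM1 and PM9.

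Ferritin transcripts split by gene. All 4 probesets of SFERH-2, a subunit of the ferritin shell that stores iron in plastids, rose, while none of the 4 probesets of SFERH-3 and SFERH-4 did. The brightest SFERH-2 probeset had signals of 3748, 3346 and 897 in stage 3 seed and 515, 437 and 357 in stage 2 seed. There was no overlap, replicate 3 of stage 3 was closest to stage 2, and the rise was 5.2-fold (2.38 ± 0.36, adjusted p = 0.00099). SFERH-4 had 1161, 1164 and 1689 in stage 3 seed and 1866, 1819 and 1963 in stage 2 seed. Its stages did not overlap either, with a change of -0.51 ± 0.12 that missed the fold threshold. The SFERH-2 probesets share a gene, so they do not count as separate observations.

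A few transcripts outside these groups were among the 10 largest rises. A short-chain dehydrogenase had signals of 6832, 5680 and 1869 in stage 3 seed and 982, 1020 and 536 in stage 2 seed, with no overlap (2.36 ± 0.50, adjusted p = 0.0082), and was not called without the block. A predicted protein with no known role had 306, 264 and 201 in stage 3 seed and 71.9, 44.2 and 15.2 in stage 2 seed (2.80 ± 0.45, adjusted p = 0.0016).

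Of 25 probesets for heat shock proteins and chaperones 2 rose and none fell (8%, against 5.27% of all probesets), and the median log2 change was -0.26. The Hsp20 transcript of LOC100500475, a small heat shock chaperone, had signals of 3334, 6862 and 585 in stage 3 seed and 514, 555 and 126 in stage 2 seed. The lowest stage 3 array stood just above the highest stage 2 array, and the rise was 7.2-fold with a wide error (2.85 ± 0.70, adjusted p = 0.018). It was not called without the block or with stage 2 replicates 1 and 2 averaged in pool 1. The other called member was a DnaJ protein (1.38 ± 0.35).

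Several other chaperones differed within stage 2. HSP90A1 had signals of 1731, 1681 and 1668 in stage 3 seed and 3866, 4107 and 911 in stage 2 seed, so stage 3 lay between stage 2 replicates 1 and 2 and replicate 3. Of the 22 heat shock probesets with a geometric mean of at least 200 in either stage, 9 had stage 2 replicates 1 and 2 both at least 2-fold above replicate 3. Among all 20273 probesets of that brightness 291 did (1.44%). HSP17.5-E and HSP23.9 were among the 9. Of 17 probesets for heat shock factors 1 was called (5.88%), a probeset with the symbol HSF-01 but the description of a putative membrane protein, at 6626, 5772 and 7680 in stage 3 seed and 11903, 11001 and 8295 in stage 2 seed (-0.63 ± 0.16, adjusted p = 0.019), and it was not called without the block. The other HSF-01 probeset had a change of 0.37 ± 0.29. The part of the stage 2 replicates in these values was not tested.

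**Figure D2:**
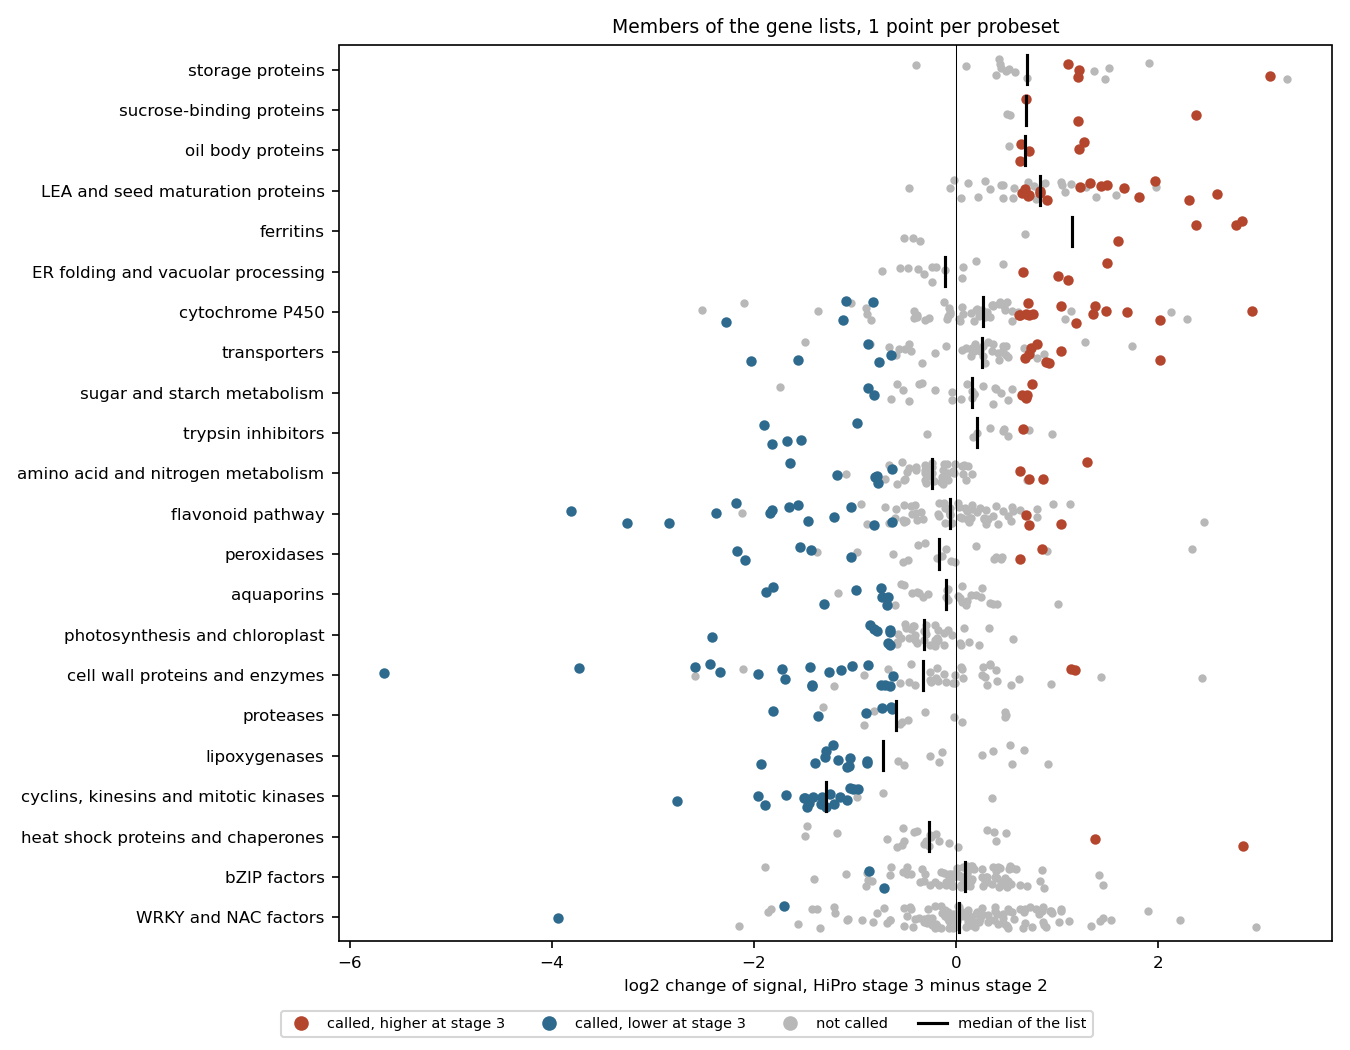
Each point is 1 probeset of a gene list, placed by its log2 change in HiPro seed (stage 3 minus stage 2), with red for called higher, blue for called lower, grey for not called and a black bar at the median of the list. Members of the storage, oil body and LEA lists lie mostly right of 0 (medians 0.71, 0.69 and 0.83) and those of the cell division and lipoxygenase lists mostly left of it (medians -1.28 and -0.72).

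Among the falls were enzymes of the flavonoid pathway to proanthocyanidins. ANR1, the anthocyanidin reductase that makes epicatechin for proanthocyanidins in the seed coat, had signals of 81.4, 74.4 and 345 in stage 3 seed and 1463, 1403 and 2788 in stage 2 seed. The stages were far apart, with replicate 3 highest at both, and the fall was 14-fold (-3.81 ± 0.33, adjusted p = 1.52e-05). DFR2, a dihydroflavonol reductase upstream of it, had 67.7, 95.7 and 336 in stage 3 seed and 1182, 1130 and 1440 in stage 2 seed, a fall of 9.6-fold (-3.26 ± 0.37, adjusted p = 0.00013).

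Earlier steps of the branch fell as well. ANS2, anthocyanidin synthase, had 866, 742 and 1882 in stage 3 seed and 5082, 5100 and 6418 in stage 2 seed (-2.37 ± 0.22). F3H, flavanone 3-hydroxylase, had 2216, 1790 and 2744 in stage 3 seed and 5433, 5391 and 7807 in stage 2 seed (-1.46 ± 0.13). No stage 3 array reached a stage 2 array in either. A second, brighter F3H probeset had 6767, 6862 and 7759 in stage 3 seed and 9694, 10511 and 10171 in stage 2 seed and was not called (-0.51 ± 0.16, adjusted p = 0.054). DFR1 and a flavonoid 3′-hydroxylase fell by 1.65 ± 0.14 and 1.84 ± 0.22 on the log2 scale, and 4CL4, a coumarate ligase at the entry of the pathway, by 2.84 ± 0.32.

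Some isoflavone synthase probesets moved the other way. Of the 82 flavonoid probesets 14 fell and 3 rose (20.7%), and all 3 that rose probe isoflavone synthase 2, which leads into the isoflavonoid branch. IFS2 had signals of 2044, 1814 and 1293 in stage 3 seed and 1054, 997 and 989 in stage 2 seed. No array of one stage reached the other, and the rise was 0.73 ± 0.14 (adjusted p = 0.0042). Further probesets described as isoflavone synthase 2 were not called (0.56 ± 0.11 and 0.37 ± 0.12). Other isoflavonoid members did not rise with it. HIDH probesets had -0.40 to -0.63, and the lowest was called (-0.63 ± 0.17). Isoflavone reductase homolog 1 fell (-2.18 ± 0.20), and the IFR1 and IFR2 probesets, at -0.39 to 0.31, were not called. The 82 probesets had a median log2 change of -0.06, near the 0.04 of all probesets, so the falls sat in some members. Without the block 10 fell and 1 rose.

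ANR1 is also 1 of 5 seed coat markers, and the other 4 were not called lower. SCB1, a BURP protein of the seed coat, had signals of 18671, 13996 and 16469 in stage 3 seed and 16517, 18402 and 15403 in stage 2 seed, and the stages overlapped (-0.04 ± 0.23, adjusted p = 0.94). The seed coat peroxidase Ep had 749, 604 and 577 in stage 3 seed and 452, 439 and 350 in stage 2 seed, a rise of 0.64 ± 0.17. LAR1, leucoanthocyanidin reductase, had 671, 875 and 1713 in stage 3 seed and 1485, 1278 and 2278 in stage 2 seed (-0.70 ± 0.28, adjusted p = 0.14). HPS, the hydrophobic protein of the seed surface, had 8902, 11645 and 2642 in stage 3 seed and 3961, 3373 and 1689 in stage 2 seed (1.20 ± 0.44, adjusted p = 0.1). The summed signal of the 5 markers, ANR1 included, was 21745 to 29075 in stage 3 seed and 22508 to 24895 in stage 2 seed. None of the 5 was at 0, and their part in the flavonoid result was not tested.

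The 10 largest falls of named transcripts included O-methyltransferases. A family 2 O-methyltransferase had signals of 8.53, 4.75 and 37.5 in stage 3 seed and 316, 324 and 568 in stage 2 seed. Stage 3 lay below stage 2 on every array and the fall was 33.7-fold (-5.07 ± 0.55, adjusted p = 0.0001), although the stage 3 signals are dim. A brighter O-methyltransferase had 102, 119 and 782 in stage 3 seed and 2764, 2449 and 4136 in stage 2 seed (-3.84 ± 0.40, adjusted p = 6.56e-05). A further member, LOC100789402, fell by 4.30 ± 0.60 on the log2 scale. Among the 10 largest falls were also LOC100306119, glutathione S-transferase GST 7 (-3.56 ± 0.57), LOC100783267, a Bet v I type protein (-3.33 ± 0.37), LOC100305909, described as disease resistance-responsive (-3.49 ± 0.52), and LOC100789277, with no description (-4.39 ± 0.60). All 10 were also called without the block and with stage 2 replicates 1 and 2 averaged in either pool, against 6 and 8 of the 10 largest rises.

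Most cell division transcripts were lower in stage 3 seed. Of 23 probesets for cyclins, kinesins and mitotic kinases 19 fell (82.6%, against 3.00% of all probesets called lower) and none rose, with a median log2 change of -1.28. A probeset of the mitotic kinase CDKB, LOC547738, had signals of 163, 180 and 200 in stage 3 seed and 627, 490 and 970 in stage 2 seed. All stage 3 arrays were below all stage 2 arrays, and the fall was 3.71-fold (-1.89 ± 0.27, adjusted p = 0.00064). The mitotic cyclin S13-6 had 162, 189 and 296 in stage 3 seed and 698, 680 and 1129 in stage 2 seed (-1.96 ± 0.26).

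Cyclin D3, which acts at entry into the cycle, was the brightest of the group. LOC547740 had 808, 656 and 1417 in stage 3 seed and 2000, 2129 and 2384 in stage 2 seed (-1.25 ± 0.18, adjusted p = 0.00057). An Aurora-1 kinase probeset fell by 1.08 ± 0.21 on the log2 scale. The only member with a log2 change above 0 was a cyclin H homolog of the CDK-activating kinase (0.36 ± 0.13, not called). Without the block 17 of the 19 were called. Of 5 histone probesets 1 (20%), histone H2A variant 1, fell (-0.89 ± 0.15).

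Cell wall transcripts fell in part. Of 58 probesets 19 fell and 2 rose (36.2%), with a median log2 change of -0.33. A xyloglucan endotransglucosylase/hydrolase, an enzyme that cuts and rejoins wall xyloglucan, had signals of 42.1, 50 and 184 in stage 3 seed and 980, 932 and 995 in stage 2 seed. The stages were far apart, and the fall was 13.3-fold (-3.73 ± 0.59, adjusted p = 0.0014). The brightest member to fall, LOC100786014, a proline-rich wall protein, had 1428, 1206 and 3650 in stage 3 seed and 10476, 12096 and 10561 in stage 2 seed (-2.58 ± 0.67, adjusted p = 0.023), and was not called with stage 2 replicates 1 and 2 averaged. A cellulose synthase fell by 1.72 ± 0.28, pectinesterase LOC100816503 by 1.42 ± 0.22 and beta-1,3-glucanase LOC100819716 by 2.33 ± 0.52 on the log2 scale. The rises were the proline-rich protein PRP2 (1.18 ± 0.31) and a fucosyltransferase (1.14 ± 0.22). Without the block 15 of the list fell and 1 rose. With stage 2 replicates 1 and 2 averaged, 9 fell and 1 rose in pool 1, and 12 fell and 2 rose in pool 2.

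Lipoxygenases, which oxidize polyunsaturated fatty acids, were called lower outside the seed lipoxygenases. Of 22 probesets 11 fell and none rose (50%), with a median log2 change of -0.72. LOC100802887 had signals of 598, 471 and 761 in stage 3 seed and 2176, 1949 and 2802 in stage 2 seed. The arrays of the stages were apart, and the fall was 3.81-fold (-1.93 ± 0.17, adjusted p = 1.52e-05). All 4 LOX7 probesets fell, by 1.06 to 1.39 on the log2 scale, as did 4 of 5 LOX9 probesets, by 0.88 to 1.22, and both VLXB probesets.

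The seed lipoxygenases LOX1.1, LOX2 and LOX3 were not called. LOX1.1 had 23418, 26502 and 16455 in stage 3 seed and 10639, 12249 and 11785 in stage 2 seed. Its stages did not overlap, with a change of 0.91 ± 0.32 (adjusted p = 0.088). LOX2 and the 2 LOX3 probesets had changes of 0.54 to 0.68, with adjusted p of 0.057 to 0.083. LOX7, LOX9 and VLXB probesets can share sequence, so their signals may not be separate.

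Trypsin inhibitors went both ways. Of 15 probesets 5 fell and 1 rose (40%). A probeset with the symbol KTI1 but the description of the Kunitz inhibitor KTI2 had signals of 26261, 28906 and 19618 in stage 3 seed and 15959, 18070 and 12789 in stage 2 seed. Every stage 3 array was the higher, and the rise was 0.67 ± 0.17 (adjusted p = 0.018), lost without the block. Trypsin inhibitor p20 had 393, 331 and 632 in stage 3 seed and 1658, 1557 and 1645 in stage 2 seed (-1.90 ± 0.29, adjusted p = 0.0012). The other called members, a second p20 probeset, LOC100305549, LOC100527288 and LOC100500579, fell by 0.98 to 1.82 on the log2 scale. The bright inhibitors KTI3, BBI and D-II had changes of 0.47 to 0.52 and were not called.

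Proteases that were called were lower. Of 18 probesets 6 fell and none rose (33.3%), with a median log2 change of -0.59. A cysteine protease had signals of 135, 93.9 and 207 in stage 3 seed and 488, 448 and 511 in stage 2 seed (-1.81 ± 0.22). The cysteine proteinase LOC100499797 had 220, 209 and 246 in stage 3 seed and 581, 546 and 603 in stage 2 seed (-1.36 ± 0.12, adjusted p = 1.63e-05). In both the stages were well apart. Without the block 5 fell, and with stage 2 replicates 1 and 2 averaged 2 fell in pool 1 and 2 in pool 2. P34, the papain-like seed allergen, was bright and not called, with changes of 0.50 ± 0.17 and 0.49 ± 0.16 in its 2 probesets.

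Photosynthesis transcripts were lower by modest factors. Of 45 probesets 8 fell and none rose (17.8%), 38 had a log2 change below 0, and the median was -0.31. The chlorophyll a/b-binding protein LOC547819 had signals of 3282, 4037 and 4046 in stage 3 seed and 6509, 6587 and 7302 in stage 2 seed. LOC100500317, a photosystem I subunit, had 1980, 2015 and 2082 in stage 3 seed and 3247, 3254 and 3162 in stage 2 seed. The stages did not overlap in either, and the changes were -0.85 ± 0.15 and -0.67 ± 0.089. The summed signal of the 45 probesets was 136343 to 154197 in stage 3 seed and 168203 to 173103 in stage 2 seed. The 3 ribosomal protein probesets that fell, of 34 (8.82%), included chloroplast 50S protein L4 (-0.66 ± 0.13).

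Water channels fell where they changed. Of 35 aquaporin probesets 8 fell and none rose (22.9%), with a median log2 change of -0.10. PIP1-6, an aquaporin of the plasma membrane, had signals of 3522, 3273 and 4295 in stage 3 seed and 7130, 7472 and 7252 in stage 2 seed (-0.99 ± 0.16, adjusted p = 0.0018). PIP2-4 had 1387, 1001 and 1113 in stage 3 seed and 3160, 3032 and 2405 in stage 2 seed (-1.30 ± 0.16, adjusted p = 0.00019). The stages did not overlap in either gene. Without the block 7 of the 8 were called.

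Other transporters changed in both directions. Of 54 probesets 8 rose and 5 fell (24.1%), with a median log2 change of 0.26. A putative peptide transporter had signals of 298, 412 and 279 in stage 3 seed and 81.8, 72.5 and 87.5 in stage 2 seed (2.02 ± 0.35, adjusted p = 0.0025). No stage 2 array came near the stage 3 arrays. Both called Ca2+/H+ exchanger probesets (0.81 ± 0.15 and 0.73 ± 0.13), a Na+/H+ antiporter (0.89 ± 0.16) and an oligopeptide transporter (0.75 ± 0.14) rose as well. The other Ca2+/H+ exchanger probesets had 0.18 to 0.29 and the NHX1 probesets 0.10 to 0.37, and none of them was called. DMT1, a metal transporter known from soybean nodules to carry iron, had 460, 511 and 678 in stage 3 seed and 1402, 1460 and 2006 in stage 2 seed (-1.56 ± 0.17, adjusted p = 0.00011). A putative amino acid or GABA permease fell by 2.03 ± 0.24 on the log2 scale. None of the 10 probesets for SWEET sugar transporters was called: SWEET24, the brightest, had 12613, 11688 and 9226 in stage 3 seed and 9910, 10533 and 9926 in stage 2 seed (0.13 ± 0.14).

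Nitrogen and carbon metabolism changed in both directions. Of 54 probesets for amino acid and nitrogen metabolism 4 rose and 6 fell (18.5%, against 5.27% of all probesets), with a median log2 change of -0.23. NADH glutamate synthase, which makes glutamate from glutamine, had signals of 2471, 4224 and 3291 in stage 3 seed and 1941, 2029 and 1458 in stage 2 seed (0.86 ± 0.17, adjusted p = 0.0054). A cytosolic glutamine synthetase had 2796, 1837 and 3002 in stage 3 seed and 4360, 4282 and 4174 in stage 2 seed (-0.78 ± 0.14, adjusted p = 0.0029). The stages did not overlap in this synthetase, and the lowest stage 3 array of the synthase lay above the highest stage 2 array. Another cytosolic glutamine synthetase, GS1GAMMA2, rose by 0.64 ± 0.18 with overlapping stages and was not called without the block. GS1-GAMMA, which has the same description, went the other way without overlap and was not called (-0.58 ± 0.19, adjusted p = 0.074). Glutamine synthetase root isozyme A and the GS1alpha probesets fell by 0.80 to 1.64. L-asparaginase 2, which frees ammonium from the asparagine delivered to the seed, rose by 0.73 ± 0.20 with overlapping stages and was not called without the block.

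Of 29 probesets for sugar and starch metabolism 4 rose and 2 fell (20.7%), with a median log2 change of 0.16. Granule-bound starch synthase probesets were called in part. The dimmest GBSSIa probeset had 405, 544 and 429 in stage 3 seed and 228, 266 and 321 in stage 2 seed (0.76 ± 0.20). The brighter GBSSIa probesets had 0.56 ± 0.14 and 0.40 ± 0.086 and missed the fold threshold. LOC100037476 rose by 0.70 ± 0.10 and 0.66 ± 0.11 in 2 of its probesets, and a further probeset missed the fold threshold (0.52 ± 0.13). None of the 13 probesets for PEP carboxylase and its kinases was called.

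Cytochrome P450 transcripts were called in both directions. Of 66 probesets 14 rose and 4 fell (27.3%), with a median log2 change of 0.27, and 3 of the 14 are the isoflavone synthase probesets above. CYP83G1 had signals of 1096, 827 and 753 in stage 3 seed and 315, 289 and 336 in stage 2 seed. The stages were separate and the rise was 2.82-fold (1.49 ± 0.23, adjusted p = 0.0011). A probeset of CYP93E1, an oxidase of soyasaponin synthesis, had 9587, 9283 and 7253 in stage 3 seed and 5879, 5467 and 5324 in stage 2 seed (0.64 ± 0.11, adjusted p = 0.0027). The other CYP93E1 probesets had 0.20 to 0.49 and were not called, among them the brightest (0.49 ± 0.13). Among the falls were CYP86A24 (-1.09 ± 0.20), whose family hydroxylates fatty acids for cutin and suberin, and LOC100791502, described as CYP92A29 (-2.28 ± 0.33). Peroxidases fell in 5 and rose in 2 of 26 probesets (26.9%), and glutathione S-transferases rose in 3 and fell in 1 of 46 (8.7%, against 5.27% of all probesets).

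Among transcription factors, 2 of 109 MYB probesets rose and 5 fell (6.42%, against 5.27% of all probesets). Of 95 bZIP probesets none rose and 2 fell (2.11%), and of 137 WRKY and NAC probesets none rose and 2 fell (1.46%). MYB172 had signals of 1281, 1929 and 2404 in stage 3 seed and 3218, 3280 and 4155 in stage 2 seed (-0.96 ± 0.14, adjusted p = 0.00085). LEC1-A, a master regulator of embryo maturation in Arabidopsis, had 1280, 1419 and 1625 in stage 3 seed and 2127, 2203 and 2185 in stage 2 seed (-0.60 ± 0.12, adjusted p = 0.0052). NF-YA13, a subunit of the nuclear factor Y complex, to which LEC1 proteins also belong, had 2041, 1766 and 1405 in stage 3 seed and 968, 982 and 792 in stage 2 seed (0.92 ± 0.11, adjusted p = 0.00014). The stages did not overlap in these 3 genes. WRI1B, whose Arabidopsis relative drives oil synthesis, had 1487, 1152 and 1143 in stage 3 seed and 1258, 1231 and 1080 in stage 2 seed and was not called (0.08 ± 0.11).

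Small gibberellin-regulated GASA peptides moved apart. Of 36 probesets for GASA peptides and gibberellin enzymes 5 fell and 2 rose (19.4%). GASA33 had signals of 71.4, 56.5 and 131 in stage 3 seed and 541, 591 and 357 in stage 2 seed (-2.58 ± 0.32, adjusted p = 0.00024). GASA12 had 16308, 18324 and 11956 in stage 3 seed and at most 9390 in stage 2 seed (0.77 ± 0.14, adjusted p = 0.0027). In both genes the stages were separate. In the ubiquitin system 3 of 30 probesets rose and 2 fell (16.7%), among them a cyclin-specific ubiquitin carrier (-1.40 ± 0.28), which marks mitotic cyclins for breakdown.

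Root nodule markers served as a check on tissue identity. Of 22 probesets 16 had a mean signal below 200 in stage 3 seed and 16 in stage 2 seed. The median over all probesets was 207 to 217 on stage 3 arrays and 202 to 216 on stage 2 arrays. Signals below 200 were therefore common on these arrays, which limits this check. The bright ones included SPCP1, a water channel related to nodulin-26, and NOD33, described as a putative phosphatase. Of the 22 probesets 1 rose and 3 fell (18.2%, against 5.27% of all probesets). NOD33 rose, with 3325, 2399 and 1725 in stage 3 seed and 852, 797 and 683 in stage 2 seed (1.63 ± 0.29, adjusted p = 0.003). The falls were a probeset of SPCP1 (-1.14 ± 0.21), N-26 (-0.73 ± 0.15) and early nodulin 36A (-1.21 ± 0.31). The summed signal of storage protein probesets was 217085 to 321582 in stage 3 seed and 127259 to 171620 in stage 2 seed, so it was higher on every stage 3 array.

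The geometric mean signals of the named transcripts over all 4 stages place this step in the course of seed fill. CG-BETA-1 had 118, 2275, 19600 and 22434 at stages 1 to 4, and its change of 0.19 on the log2 scale in the last step was not called. At stages 3 and 4 its signal was 73.5% to 76.1% of the highest signal on each array, with 33 to 53 probesets above it, so a further change may not have been measurable there. SFERH-2 had 131, 431, 2241 and 5407, and the Hsp20 transcript 160, 330, 2374 and 13049. On the falling side, ANR1 had 3686, 1789, 128 and 36.2, CDKB 1763, 668, 180 and 103, and the bright O-methyltransferase 5056, 3037, 212 and 28.2. The number called was 945 (2.51%) for stage 2 against stage 1, with 457 higher and 488 lower, and 485 (1.29%) for stage 4 against stage 3, with 57 higher and 428 lower. These steps share arrays with the one described here.

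**Figure D3:**
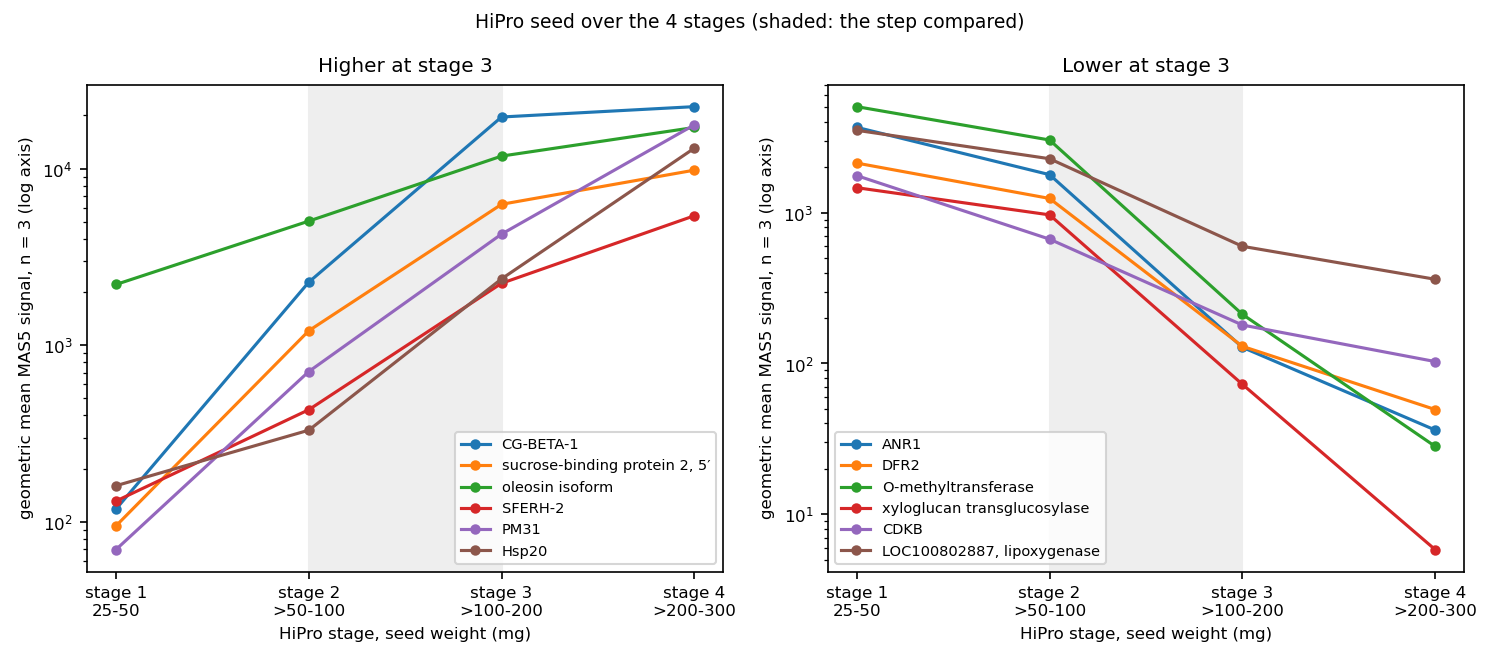
Lines join the geometric mean MAS5 signal (log axis, n = 3 arrays) of HiPro seed at stages 1 to 4, labelled with seed weight in mg, for 6 transcripts higher at stage 3 (left) and 6 lower at stage 3 (right), with the step from stage 2 to stage 3 shaded. CG-BETA-1 climbs over 118, 2275, 19600 and 22434, and ANR1 declines over 3686, 1789, 128 and 36.2.

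The same step was examined in LoPro seed, which shares no array with it. LoPro is not an independent repeat, since both lines were harvested in parallel and share the limma estimate of spread. Some same-numbered arrays of the lines were close, with a spread of 0.14 at stage 1 (replicate 3) and 0.175 at stage 2 (replicate 3). Their deviations from the group means correlated at 0.000753 to 0.135 at stage 2 and at 0.0491 to 0.172 at stage 3. The part of this in the overlap of calls was not tested. There 4381 probesets were called (11.6%), 2208 higher (5.86%) and 2173 lower (5.76%). In both lines 505 rose and 882 fell, which is 69.9% of the HiPro calls and 31.7% of the LoPro calls. Another 1 was called in opposite directions, a dim probeset with no description (2.02 ± 0.60 in HiPro and -1.87 in LoPro), given here after its values were seen. Of the 1985 HiPro calls 1933 had the same sign in LoPro. The 856 rises had a median log2 change of 0.83 in HiPro and 0.74 in LoPro, and the 1129 falls -0.99 in HiPro and -1.03 in LoPro. All 10 of the largest rises and all 10 of the largest falls were also called in LoPro.

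No probeset was called as differing between HiPro and LoPro in its change to stage 3. The limma interaction, the HiPro change minus the LoPro change, gave 0 calls, 3147 probesets with an unadjusted p under 0.05 and a smallest adjusted p of 0.419. An analysis of variance per probeset gave 0 calls and 1973 with an unadjusted p under 0.05, and limma without the block 0 and 2273. Without HiPro plant pool 3 it gave 32 higher and 44 lower, without HiPro stage 2 replicate 3 it gave 3 and 4, and without HiPro stage 3 replicate 3 it gave 0 and 1. The difference in the number of calls between the lines is therefore not shown to be one in any named transcript.

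The probeset with the smallest interaction p was the dimmer one of F3H, which changed by -1.46 in HiPro and by -2.60 in LoPro (unadjusted p = 1.17e-05 from limma). Its LoPro signals were 1203, 1163 and 1237 in stage 3 seed and 6571, 5882 and 9886 in stage 2 seed. The stages were separate in both lines, and stage 3 seed of HiPro lay above that of LoPro on every array. SOMT-9, an O-methyltransferase, rose in HiPro, with 82, 100 and 61.4 in stage 3 seed and 27.9, 27 and 32.1 in stage 2 seed (1.46 ± 0.28, adjusted p = 0.0046). In LoPro it had 32.5, 42.8 and 27.3 in stage 3 seed and 82.7, 52.9 and 41.8 in stage 2 seed, a change of -0.75 that was not called. Of the other 3 with the smallest p, LOC100816913 changed by -0.35 in HiPro and 0.94 in LoPro, and a pair of probesets with no description by 0.36 and -0.12 in HiPro and -0.76 and 3.20 in LoPro. All 5 had an adjusted interaction p of 0.419.

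Among the gene lists, both lines had the same direction of calls in most. LEA and seed maturation probesets rose in 16 of 41 in HiPro and in 27 in LoPro, with medians of 0.83 and 1.24. Cell division probesets fell in 19 of 23 in HiPro and in 20 in LoPro, each with a median of -1.28. Photosynthesis probesets fell in 8 of 45 in HiPro and in 21 in LoPro, with medians of -0.31 and -0.52. Heat shock proteins had a median of -0.26 in HiPro and 0.92 in LoPro, with 2 and 4 of 25 called higher, and none of them had an adjusted interaction p below 0.419. Replicates 1 and 2 of HiPro stage 2, which stood above replicate 3 in 9 of these probesets, enter only the HiPro median.

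**Figure D4:**
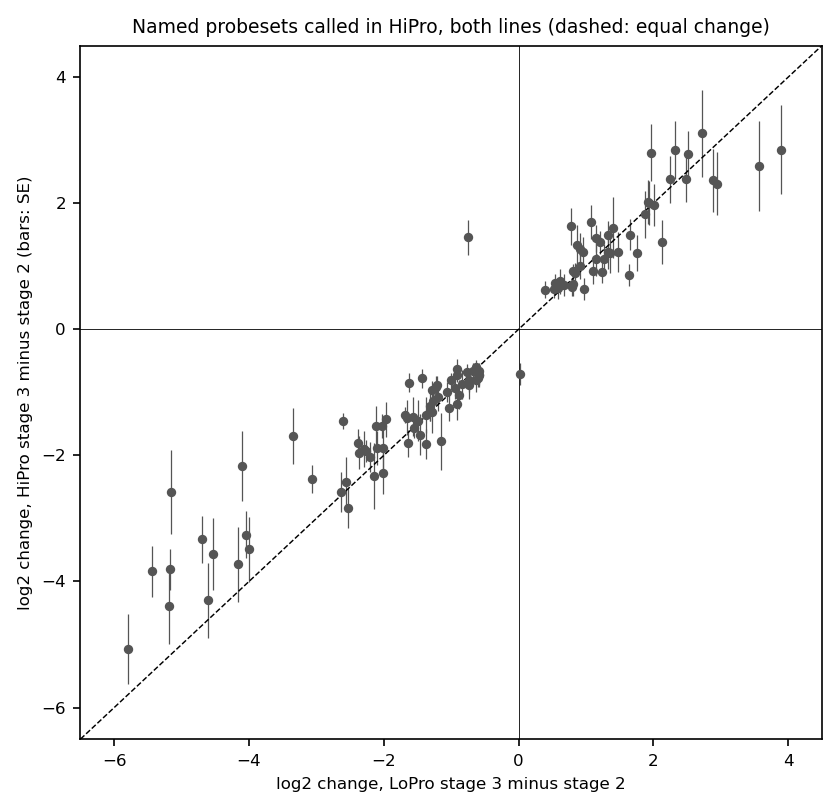
Each point is a named probeset called in HiPro, with its log2 change (stage 3 minus stage 2) in HiPro on the y axis, with SE bars, and in LoPro on the x axis; the dashed line marks equal change. All but 2 of the points lie in the quadrants of equal sign, the exceptions being SOMT-9 at 1.46 in HiPro and -0.75 in LoPro and a bZIP and START domain factor at -0.71 in HiPro and 0.02 in LoPro.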

How the data were processed

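Transcript levels were measured on the Affymetrix Soy GeneChip, 1 array per pool of 3 plants, line and stage. The deposited values are intensity signals that the authors made with MAS5 (version not given in the sources used here) on a linear scale; the study's own comparisons used RMA values. No floor was applied, so dim signals enter as deposited. No counts or depth exist for arrays, and the number of arrays limits the precision.

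Of 37763 probesets 69 controls were left out. For the other 37694, limma (version 3.58.1, under R version 4.3.3) modelled the log2 signal by 8 means of line and stage over 24 arrays, with the plant pool as a fixed block, eBayes with trend and 12 residual degrees of freedom. Calls needed a Benjamini-Hochberg adjusted p under 0.05 and 1.5-fold. The replicate number pairs the stages because the methods state that stages came from the same plants. Deviations of same-numbered arrays correlated at 0.0765, -0.00466 and 0.0639. Those of differently numbered arrays correlated at -0.122 to 0.0663, so the ranges overlapped and the values give the pairing little support. The fit was tested on simulated data. Alternatives were quantile and median scaling, a floor, a filter, no or a random block, smaller sets of arrays, the methods' t-test and leaving out arrays or pools; averaging stage 2 replicates 1 and 2 was added after seeing the data.

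Members and gene lists were chosen with earlier results of these data known. Named are the 10 largest rises and falls among called probesets with a symbol or description, no overlap between stages and a geometric mean of at least 200 in the higher stage, 1 per gene, up to 4 such members per list, all members of the storage, sucrose-binding, oil body and ferritin lists, and the 5 smallest interaction p. Other genes named, among them list members that were not called, were chosen after their values were seen. Symbols came from the platform annotation, and descriptions from the study's additional files, read only in part. Where several probesets share a gene, each is given on its own.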

Additional observations from a re-analysis of the deposited data

How the results depend on the processing

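The counts of 856 rises and 1129 falls stayed within 1.5 times under quantile normalization, median centring, a floor on low signals, a filter on dim probesets, the plant pool as a random block and a fit of the 12 HiPro arrays. They moved further without the replicate block, to 427 and 616, in a fit of the 6 arrays alone with the block, to 348 and 557, and with the methods' t-test, to 0 and 1, where 5550 probesets had an unadjusted p under 0.05 and the 1 called was a dim xyloglucan endotransglucosylase/hydrolase probeset, LOC100793686. With stage 2 replicates 1 and 2 averaged, an alternative added after seeing the data, they were 553 and 684 in pool 1, 387 and 637 in pool 2 and 123 and 234 unblocked. Leaving out arrays or pools gave 253 to 926 rises and 389 to 1399 falls. The rises moved by over 1.5 times without stage 2 replicate 1 (416), stage 3 replicate 1 (467) or replicate 2 (433), or pool 1 (253) or 2 (282). The falls did so without the same arrays and pools (659, 624, 565, 390 and 389) and without stage 2 replicate 2 (711). The causes were not tested. The difference between the lines stayed at 0 calls except when arrays were left out, at 0 to 32 higher and 0 to 44 lower; 32 and 44 came without HiPro pool 3, and without its stage 2 array there were 3 and 4 and without its stage 3 array 0 and 1. In all 20 alternatives other than the t-test 59 rises and 146 falls were called. No called result among the 142 named probesets reversed its direction under these alternatives. The direction of the other called probesets under each alternative is not given here. The deposited signals hold no depth.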
